A study of Mus musculus with 30 samples.

Results

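RNA of cardiac myocytes from 6-month-old mice with regular activity was compared between the genotype Myh6-Cre:DspW/F and wild type. The comparison took the 5 libraries of each group that the titles place at 6 months without exercise, which is 10 of the 30 libraries of the series. The mice of genotype Myh6-Cre:DspW/F are called heterozygotes here, and the series describes them as haploinsufficient for desmoplakin in the heart. Myh6-Cre drives Cre recombinase from a promoter of cardiac myocytes, so the floxed Dsp allele is targeted in these cells. The other groups of the series are both genotypes at 3 months, which serve below for a test of age, and both genotypes after exercise, which were not used. Whether wild types carry Cre is not in the labels, so effects of Cre itself and of the floxed allele cannot be told apart. The labels do not say either whether the 5 replicates of a group are 5 animals, so the p-values measure the spread between these libraries, which may be technical.

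Desmoplakin is the plakin that ties the desmosomes of the intercalated disc, where heart muscle cells meet end to end, to the intermediate filaments inside the cell. Desmosomes share the disc with adherens junctions and gap junctions, and in the heart these form a mixed junction called the area composita. Loss of desmosomal proteins is known as a cause of arrhythmogenic cardiomyopathy, in which fibrous and fatty tissue takes the place of muscle.

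Total counts per library ran from 17089878 to 23710331, and 14450 genes passed the filter on low counts. All 20 ventricular myocyte markers passed it. Their summed level was 98460 to 120200 CPM in wild type and 88390 to 119400 CPM in heterozygotes. CPM are counts relative to the library total, which is scaled except for marker sums, lymphocyte and neutrophil markers, Xist and Y-linked genes. Lymphocyte and neutrophil markers were near the floor, with 15 of 16 under 1 CPM in every library and sums of 0.587 to 1.49 CPM and 0.795 to 3.86 CPM. Some libraries stood apart. Transcripts of the mitochondrial genome took 25.7% of the counts in heterozygote 3 and 26.7% in heterozygote 5, against 11.7% to 18.8% in the other 8, and ribosomal RNA took 6.70% in heterozygote 5. Ribosomal RNA here included that of the mitochondrial genome, so the mitochondrial and ribosomal shares overlap and are not independent measures. Neither share differed between the groups beyond its spread (15.6% ± 1.68 and 19.9% ± 6.32 mitochondrial, mean ± SD, n = 5, exact permutation test, two-sided, p = 0.222, adjusted over 4 shares 0.339). Ribosomal RNA took 1.82% ± 0.488 and 3.52% ± 2.03 (exact permutation p = 0.0873, adjusted 0.339, n = 5), where the smallest p possible is 0.00794. Xist was at 125 to 184 CPM in wild types 2 and 5 and heterozygotes 2 and 4, and under 1 CPM in the others. Wild types 2 and 5 also held 2.4 and 2.87 CPM from 4 Y-linked genes, which stood at 0.139 and 0.295 CPM in heterozygotes 2 and 4 and at 129 to 184 CPM in the remaining 6. The labels give no sex, and the counts of calls in the main lists are also given without wild types 2 and 5 and without heterozygotes 3 and 5.

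Dsp itself was not called lower at 6 months. Dsp (ENSMUSG00000054889, GRCm38 chr13:38151294-38198577) stood at 722, 709, 685, 1066 and 976 CPM in wild types 1 to 5 and at 664, 701, 654, 630 and 733 CPM in heterozygotes 1 to 5. Wild types 4 and 5 were the highest, and the other 3 wild types lay within the heterozygote range, so the groups overlapped. The log2 fold change, heterozygote minus wild type, was -0.30 ± 0.13 (SE, n = 5 per group, edgeR adjusted p = 0.268). The counts cover the whole gene and the labels do not name the floxed exons, so a shortened transcript would be counted as well. Of the 9 tested desmosome genes Dsp was the 1 with an unadjusted edgeR p under 0.05 (0.032), where 15.7% of all tested genes had one. None of the 9 desmosome genes was called by edgeR, DESeq2 or limma-voom. Their median log2 fold change was -0.02, against 0.02 for all tested genes. Jup, which encodes plakoglobin, had a log2 fold change of -0.02, Pkp2 (plakophilin-2) 0.09, Dsg2 (desmoglein-2) -0.13 and Dsc2 (desmocollin-2) -0.08. The gap junction gene Gja1 stood at 430 to 650 CPM in wild type and 498 to 797 CPM in heterozygotes, with a log2 fold change of 0.17 (edgeR adjusted p = 0.59).

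Across the transcriptome 218 of 14450 genes were called at an edgeR adjusted p under 0.05, which is 1.51% of those tested. Among them, 135 were higher (0.934%) and 83 lower (0.574%) in heterozygotes, and 210 were protein-coding. The 2 groups of 5 libraries did not overlap in 591 genes (4.09%), of which 311 were higher (2.15%) and 280 lower (1.94%). An unadjusted p under 0.05 was reached by 2267 genes (15.7%), with 8.62% of the tested genes higher and 7.07% lower. All 218 kept their direction in every alternative tried. The number of calls was 625 of 14161 with DESeq2 (4.41%), 259 with limma-voom (1.79%) and 82 in an edgeR fit that shared its spread with the 3-month libraries (0.543%, 36 higher and 46 lower). It fell to 105 without wild type 1, 123 without wild type 2, 118 without heterozygote 4 and 112 without heterozygote 5, and 77 genes (48 higher, 29 lower) were called in all 10 fits that left out 1 library.

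**Figure D1:**
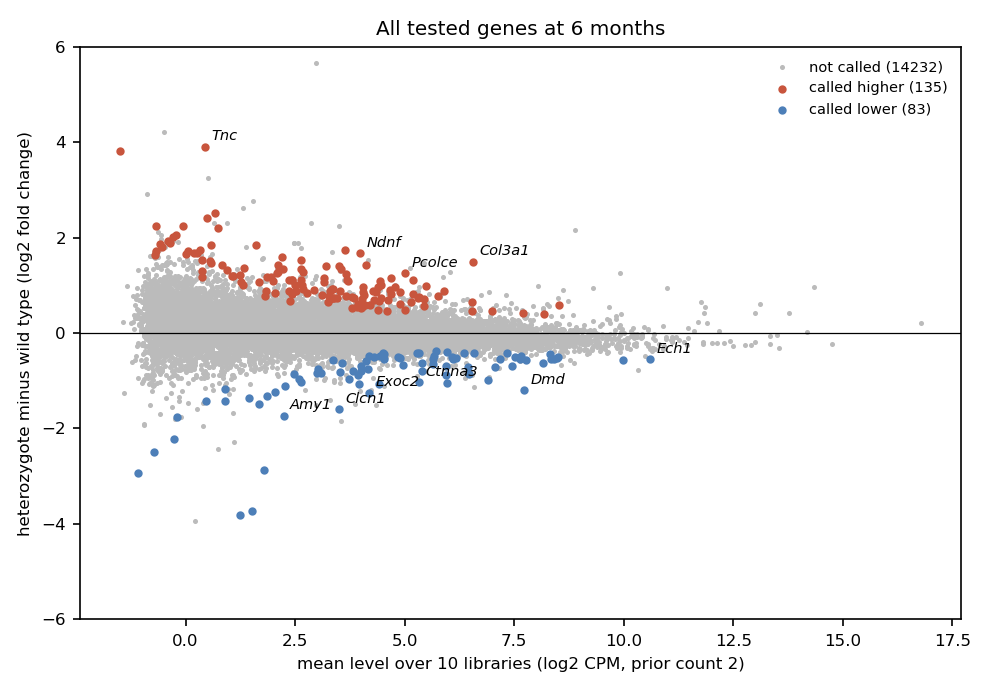
Log2 fold change, heterozygote minus wild type, of each of the 14450 tested genes against its mean level over the 10 libraries (log2 CPM). The 135 genes called higher are red, the 83 called lower are blue and the others grey, and no called gene has a higher mean level than Ech1, at 10.61 log2 CPM.

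Dmd, Ctnna3 and Exoc2 fell. Dmd encodes dystrophin, which links actin beneath the membrane to the dystroglycan complex and through it to the matrix. Dmd (ENSMUSG00000045103, chrX:82948870-85206141) stood at 361, 311, 321, 308 and 316 CPM in wild types 1 to 5 and at 163, 96.7, 141, 154 and 152 CPM in heterozygotes 1 to 5. Every heterozygote was below every wild type, with heterozygote 2 the lowest, and the fall was 2.29-fold (log2 fold change -1.19 ± 0.12, edgeR adjusted p = 0.000181). Ctnna3 encodes alphaT-catenin, the catenin of the area composita, and binds plakophilin-2. Ctnna3 (ENSMUSG00000060843, chr10:63430098-65003667) stood at 59.2, 68.2, 54.8, 49.7 and 59.1 CPM in wild type and at 29.1, 24.6, 33.97, 29.4 and 25.0 CPM in heterozygotes. Every heterozygote was again below every wild type, at a log2 fold change of -1.04 ± 0.11 (edgeR adjusted p = 0.000328). Exoc2 encodes a subunit of the exocyst, the complex that tethers secretory vesicles to the membrane. Exoc2 (ENSMUSG00000021357, chr13:30813919-30974093) stood at 28.2, 28.8, 27.2, 31.7 and 24.5 CPM in wild type and at 10.6, 12.7, 13.2, 12.3 and 10.1 CPM in heterozygotes. Again no library overlapped, and the log2 fold change was -1.25 ± 0.11 (edgeR adjusted p = 5.05e-05).

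Each of these 3 genes was the 1 call in its list, while 0.574% of all tested genes were called lower. Of 21 tested genes of the dystrophin complex Dmd was the 1 gene called, and the median log2 fold change of the list was -0.04. Ctnna3 was the 1 call among 21 genes of the area composita and adherens junction (median -0.03), and Exoc2 the 1 call among 11 exocyst genes (median 0.09). All 3 were called in each of the 10 fits that left out 1 library, and without wild types 2 and 5 or heterozygotes 3 and 5. Jph1 encodes junctophilin-1, which holds the sarcoplasmic reticulum to the plasma membrane. It stood at 32.6 to 40.2 CPM in wild type and 20.5 to 28.1 CPM in heterozygotes without overlap (log2 fold change -0.52 ± 0.11, edgeR adjusted p = 0.0288), the 1 call among 19 genes of the junctional membrane and calcium release (median -0.11). Its call was lost without wild type 1, 2 or 3 or heterozygote 4 or 5, with an edgeR adjusted p of 0.0848 at most.

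**Figure D2:**
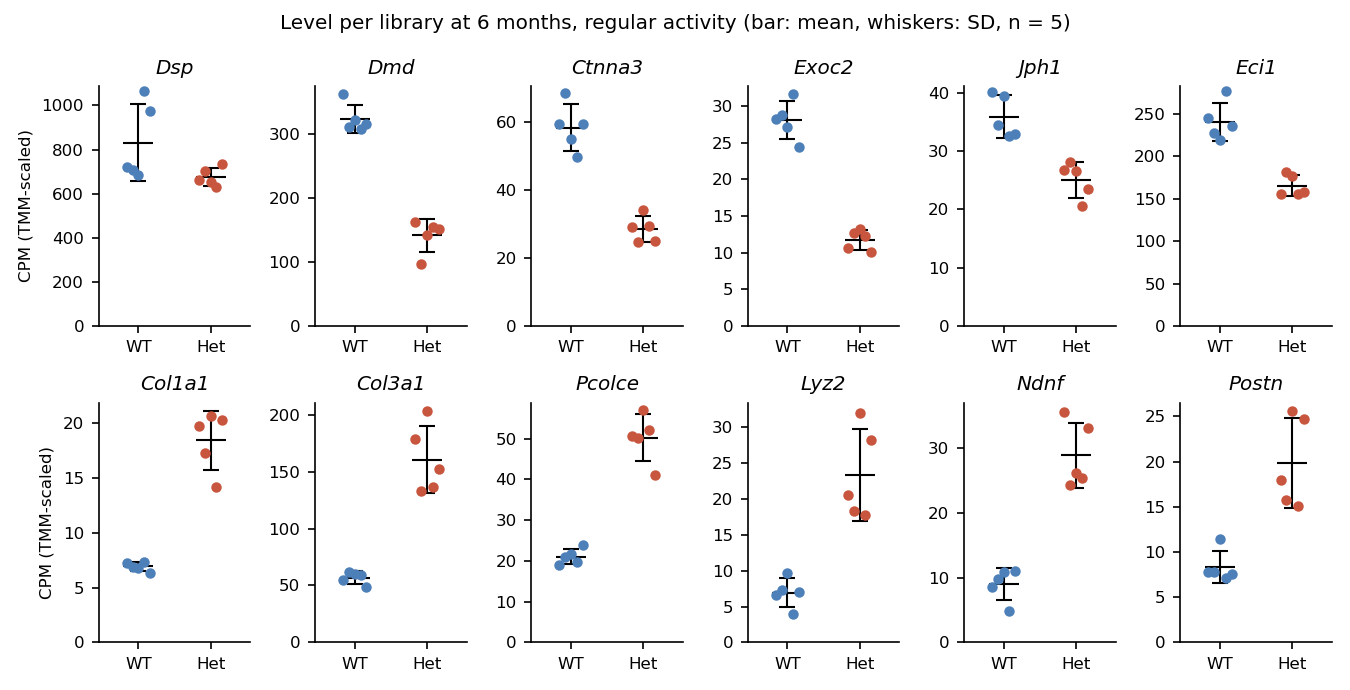
Level of 12 genes in each library (CPM on TMM-scaled library sizes, axes from 0), wild type in blue and heterozygotes in red, with the mean and SD of the 5 libraries. Dsp overlapped between the groups, Dmd, Ctnna3, Exoc2, Jph1 and Eci1 were lower in every heterozygote, and Col1a1, Col3a1, Pcolce, Lyz2, Ndnf and Postn were higher in every heterozygote.

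Genes of collagens I, III and V rose. Collagens I and III are the main fibrils of the heart's interstitium, and Col5a2 belongs to the collagen that nucleates these fibrils. All 19 tested collagen genes had a positive log2 fold change, against 52.8% of all tested genes. Of the 19, 9 were called higher (0.934% of all tested genes were) and none lower, and their median was 0.82. Col3a1 (ENSMUSG00000026043, chr1:45311538-45349706) stood at 54.4, 61.9, 60.1, 59.3 and 48.6 CPM in wild type and at 179, 133, 203, 136 and 152 CPM in heterozygotes. Heterozygote 3 was the highest and the lowest heterozygote was still above every wild type (2.82-fold, log2 fold change 1.50 ± 0.12, edgeR adjusted p = 2.96e-05). Col1a1 stood at 7.29, 6.85, 6.81, 7.39 and 6.35 CPM against 19.7, 17.3, 20.6, 14.2 and 20.3 CPM, again with no overlap (1.41 ± 0.13, edgeR adjusted p = 5.05e-05). Col1a2 stood at 23.6 to 27.8 CPM and 44.0 to 68.3 CPM (1.12 ± 0.11, edgeR adjusted p = 0.000168), and Col5a2 at 5.89 to 8.21 CPM and 13.3 to 23.2 CPM (1.35 ± 0.15, edgeR adjusted p = 0.000364). All 4 were called in every fit that left out 1 library. The number of collagens called was 7 without heterozygotes 3 and 5, 6 without wild types 2 and 5, 5 in the fit shared with the 3-month libraries and 13 with DESeq2.

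Procollagen needs enzymes to fold, to be cut and to be crosslinked. Of 22 such genes 4 were called, all higher (0.934% of all tested genes were), with a list median of 0.16. Pcolce encodes an enhancer of the proteinase that removes the C-terminal propeptide of fibrillar procollagens. Pcolce (ENSMUSG00000029718, chr5:137605103-137613784) stood at 19.1, 21.01, 21.6, 19.8 and 23.8 CPM in wild type and at 50.5, 50.2, 56.9, 52.1 and 41.2 CPM in heterozygotes. The lowest heterozygote was well above the highest wild type, both of them replicate 5 (2.38-fold, log2 fold change 1.25 ± 0.11, edgeR adjusted p = 2.96e-05). Loxl1, a lysyl oxidase of elastic fibres, changed by 0.58 ± 0.11 (edgeR adjusted p = 0.0161). P4hb, a subunit of prolyl 4-hydroxylase, changed by 0.43 ± 0.09 (edgeR adjusted p = 0.0273), and Adamts2, the N-propeptidase, by 0.74 ± 0.16 (edgeR adjusted p = 0.028). P4hb was called in 4 and Adamts2 in 3 of the 10 fits that left out 1 library, with an edgeR adjusted p of up to 0.0775 without wild type 5 and 0.0816 without wild type 1. Without wild types 2 and 5, or without heterozygotes 3 and 5, 1 gene of this list was called.

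The 250 bases before the RefSeq start are shown for 3 matrix genes that rose together and for Dmd, so that their core promoters can be set side by side. The sequences are from RefSeq on GRCm38.p6, all on the plus strand and read 5′ to 3′. Capitals mark TATAAA and CCAAT on either strand (TTTATA and ATTGG on the other), which do not overlap each other here.
Col1a2, chr6:4505368-4505617: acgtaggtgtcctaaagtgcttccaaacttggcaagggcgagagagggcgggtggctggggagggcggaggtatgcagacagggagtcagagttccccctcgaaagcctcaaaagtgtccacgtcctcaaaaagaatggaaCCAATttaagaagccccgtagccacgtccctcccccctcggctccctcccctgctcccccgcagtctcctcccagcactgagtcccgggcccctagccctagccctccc
Col3a1, chr1:45311288-45311537: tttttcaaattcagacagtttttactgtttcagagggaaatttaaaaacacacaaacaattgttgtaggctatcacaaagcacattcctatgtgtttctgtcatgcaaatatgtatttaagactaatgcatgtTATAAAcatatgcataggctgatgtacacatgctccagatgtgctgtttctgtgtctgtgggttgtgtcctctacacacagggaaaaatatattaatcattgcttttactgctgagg
Postn, chr3:54360857-54361106: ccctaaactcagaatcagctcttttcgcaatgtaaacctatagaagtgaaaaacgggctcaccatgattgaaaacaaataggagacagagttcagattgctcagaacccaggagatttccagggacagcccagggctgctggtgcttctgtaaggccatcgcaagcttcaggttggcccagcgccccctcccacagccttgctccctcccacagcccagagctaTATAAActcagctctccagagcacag
Dmd, chrX:82948620-82948869: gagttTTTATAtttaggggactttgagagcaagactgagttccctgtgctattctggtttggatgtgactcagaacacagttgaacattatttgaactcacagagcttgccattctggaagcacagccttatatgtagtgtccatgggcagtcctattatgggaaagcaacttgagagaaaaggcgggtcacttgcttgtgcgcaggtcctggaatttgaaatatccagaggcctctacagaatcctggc
The leftmost base of the TATAAA match lay 26 bases before the start in Postn, 117 in Col3a1 and 245 in Dmd, where the match is on the opposite strand, and CCAAT lay 109 bases before the start in Col1a2. For Postn and Dmd the table holds 2 windows, and the one at the annotated start of the gene is shown. TATAAA occurred in 8.1% of the 10240 tested genes with such a window, in 16.3% of 92 genes called higher and in 10.3% of 58 called lower. CCAAT occurred in 39.7%, 35.9% and 34.5%. A match describes these letters only and says nothing about binding.

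Of 28 matricellular and structural matrix genes, 12 were called higher (0.934% of all tested genes were) and none lower, the list's median being 0.80. Bgn, the proteoglycan biglycan, stood at 27.0 to 39.1 CPM in wild type and 50.9 to 74.8 CPM in heterozygotes (log2 fold change 0.98 ± 0.12, edgeR adjusted p = 0.00109). Fbn1, which encodes the microfibril protein fibrillin-1, stood at 27.0 to 34.8 CPM and 47.4 to 62.6 CPM (0.76 ± 0.10, edgeR adjusted p = 0.00176). Postn encodes periostin, a matricellular protein of activated fibroblasts, and stood at 7.77, 7.75, 11.4, 7.12 and 7.59 CPM against 18.0, 15.8, 25.6, 15.1 and 24.7 CPM. Its groups did not overlap, although wild type 3 was clearly above the other wild types (1.24 ± 0.18, edgeR adjusted p = 0.00351). Tnc encodes tenascin-C, which is low in the healthy adult heart, and stood at 0.373, 0.0531, 0.550, 0.425 and 0.361 CPM against 13.1, 2.68, 2.93, 2.76 and 5.85 CPM. All heterozygotes were above all wild types, and heterozygote 1 held more than the other 4 (3.91 ± 0.58, edgeR adjusted p = 0.00795). Cilp, which encodes a matrix protein of cartilage and of heart fibroblasts, was 3.03-fold higher (1.60 ± 0.29, edgeR adjusted p = 0.0152).

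Of 20 genes of elastic fibres, a list put together after the calls were seen, 8 were called higher (0.934% of all tested genes were). A negative log2 fold change was found for 6, of which 1 had an unadjusted edgeR p under 0.05, and the list's median was 0.73. Besides Fbn1 and Loxl1 it held Eln, which encodes elastin itself (1.15 ± 0.22, edgeR adjusted p = 0.0211). Emilin1 (0.89 ± 0.15, edgeR adjusted p = 0.00989), Svep1, Mfap5, Fbln5 and Fbln2 completed the calls, with log2 fold changes of 1.28, 1.17, 1.01 and 0.72. Among 21 matrix proteases and inhibitors, 3 were called higher and 1 lower, against 0.934% and 0.574% of all tested genes. Mmp14, a membrane-bound collagenase, stood at 2.87 to 4.36 CPM and 5.84 to 8.82 CPM (1.12 ± 0.18, edgeR adjusted p = 0.00662). Mmp23 changed by 1.33 ± 0.21 (edgeR adjusted p = 0.00662) and Mmp2, a gelatinase, by 0.80 ± 0.15 (edgeR adjusted p = 0.0152). Adamts1, which cuts versican and other proteoglycans, fell from 103 to 137 CPM to 52.2 to 87.2 CPM (-0.72 ± 0.14, edgeR adjusted p = 0.0216). Mfap5 and Fbln5 were called in 2, Eln in 6 and Adamts1 in 7 of the 10 fits that left out 1 library, and their edgeR adjusted p then reached at most 0.0936 without heterozygote 5. Without heterozygotes 3 and 5 the number of calls fell from 12 to 4 in the matricellular list, and from 8 to 1 in the list of elastic fibres.

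Markers of fibroblasts and macrophages were higher in the same libraries. The summed level of all 18 fibroblast markers was 451 to 625 CPM in wild type and 701 to 1083 CPM in heterozygotes. Of 17 tested, 9 were called higher (0.934% of all tested genes were), with a median of 0.72 on the log2 scale. Fbln1 was the 1 marker that went the other way, with 5603 counts over the wild types and 2978 over the heterozygotes (unadjusted edgeR p under 0.05, not called). This list shares Col1a1, Col1a2, Col3a1, Postn, Dcn, Lum, Mfap5 and Fbln2 with the lists of collagens and matrix genes above. Pi16, a marker of adventitial fibroblasts in the same list, chosen after its values were seen, rose by 1.09 ± 0.17 (edgeR adjusted p = 0.00662). The 22 macrophage and monocyte markers summed to 30.9 to 56.3 CPM and 77.0 to 148 CPM. Of 17 tested, 7 were called higher (0.934% of all tested genes were), with a median of 1.42. Endothelial markers summed to 1007 to 1456 CPM and 1123 to 2256 CPM, and all 20 had a positive log2 fold change (median 0.42). Vwf was the 1 call (0.934% of all tested genes were called higher). Without heterozygotes 3 and 5, 15 of the 20 endothelial markers were positive (median 0.13) and none was called. Without wild types 2 and 5 all 20 were positive (median 0.31) and none was called. Vwf, the von Willebrand factor gene, stood at 14.1 to 23.1 CPM in wild type and up to 35.4 CPM in heterozygotes, with an overlap (0.73 ± 0.17, edgeR adjusted p = 0.0423), and was called in 2 of the 10 fits that left out 1 library (up to 0.112 without wild type 1). Pericyte and smooth muscle markers summed to 3959 to 4563 CPM and 4444 to 5622 CPM, with a median of 0.45 and none of 13 called by edgeR. Of the 13, 8 were higher at an unadjusted p under 0.05 (8.62% of all tested genes were). DESeq2 called 2 of them and limma-voom none. None of the markers of these 4 lists was at 0 in all libraries. Heterozygote 3 was the highest library for the collagen, fibroblast, macrophage and endothelial lists, as the plot of list levels by library shows. In RNA of bulk preparations, more cells of a type and more RNA per cell cannot be told apart, and the part of these other cells in the matrix and immune results was not tested.

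**Figure D3:**
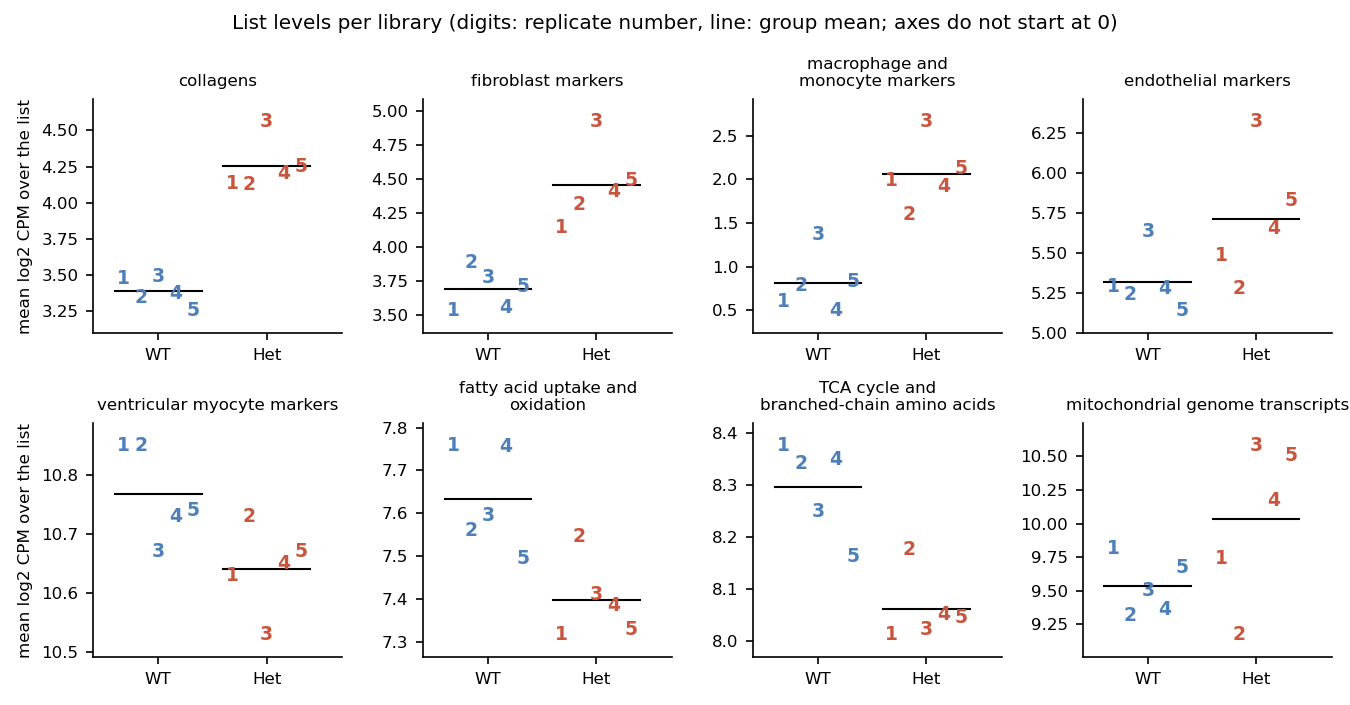
Mean log2 CPM over the tested members of 8 gene lists in each library, with digits for the replicate number, blue for wild type and red for heterozygotes, and a line at the group mean. For the collagen, fibroblast and macrophage lists all 5 heterozygotes lie above all wild types, and for the fatty acid and TCA cycle lists 4 heterozygotes lie below all wild types.

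Lyz2 encodes the lysozyme of myeloid cells. Lyz2 stood at 6.65, 7.32, 9.60, 3.98 and 6.97 CPM in wild type and at 20.5, 18.3, 32.0, 17.7 and 28.2 CPM in heterozygotes. The groups did not overlap and heterozygotes 3 and 5 were the highest (3.36-fold, log2 fold change 1.75 ± 0.22, edgeR adjusted p = 0.00231). Without heterozygotes 3 and 5 it was still called, at an edgeR adjusted p of 0.00625. Mrc1, the mannose receptor of resident macrophages, stood at 1.12 to 3.00 CPM and 3.25 to 8.98 CPM (1.85 ± 0.34, edgeR adjusted p = 0.0175), and its call was lost without wild type 1 (0.0514). Of the 3 chains of C1q, which starts the classical complement pathway and is made by macrophages, C1qb rose by 1.42 ± 0.25 (edgeR adjusted p = 0.013), C1qa by 1.35 ± 0.28 (0.0319) and C1qc by 1.11 ± 0.26 (0.0445). In a list of 20 complement genes put together after the calls were seen, 6 were called higher and none lower (median 0.88). Among all tested genes 0.934% were called higher. Besides C1q the 6 included C1s1, a protease of the C1 complex (0.92 ± 0.16), and C3ar1, the receptor of the C3a fragment (1.67 ± 0.31). Without wild types 2 and 5, or without heterozygotes 3 and 5, 2 genes of the complement list were called. C1qa was called in 3 and C1qc in 1 of the fits that left out 1 library, with an edgeR adjusted p of up to 0.0879 without wild type 2 and 0.108 without wild type 1. Without wild types 2 and 5, or without heterozygotes 3 and 5, 1 of the 17 macrophage markers was called in place of 7.

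All 19 tested genes of antigen presentation had a positive log2 fold change, with a median of 0.80, and 3 were called (1.51% of all tested genes were). They were Cd74, the invariant chain of MHC class II (1.43 ± 0.27, edgeR adjusted p = 0.028), Ctss, the protease that cuts it (1.74 ± 0.36, 0.0273), and H2-DMa, which loads peptides (1.46 ± 0.33, 0.042). Cd74 stood at 6.69 to 13.4 CPM in wild type and 17.3 to 47.4 CPM in heterozygotes, the lowest being heterozygote 1 and the highest heterozygote 3. Cd74 and Ctss were called in 5 and H2-DMa in 2 of the fits that left out 1 library, with an edgeR adjusted p of up to 0.108 for H2-DMa without wild type 1, and none of the list was called without heterozygotes 3 and 5 or without wild types 2 and 5. Of 32 interferon-induced genes 29 had a positive log2 fold change (median 0.52), yet edgeR called none, DESeq2 called 4 and limma-voom 1, and 18 had an unadjusted p under 0.05 (15.7% of all tested genes had one). Ifit1 stood at 2.18 to 4.80 CPM in wild type and 3.85 to 7.15 CPM in heterozygotes (0.95 ± 0.23, edgeR adjusted p = 0.0558).

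**Figure D4:**
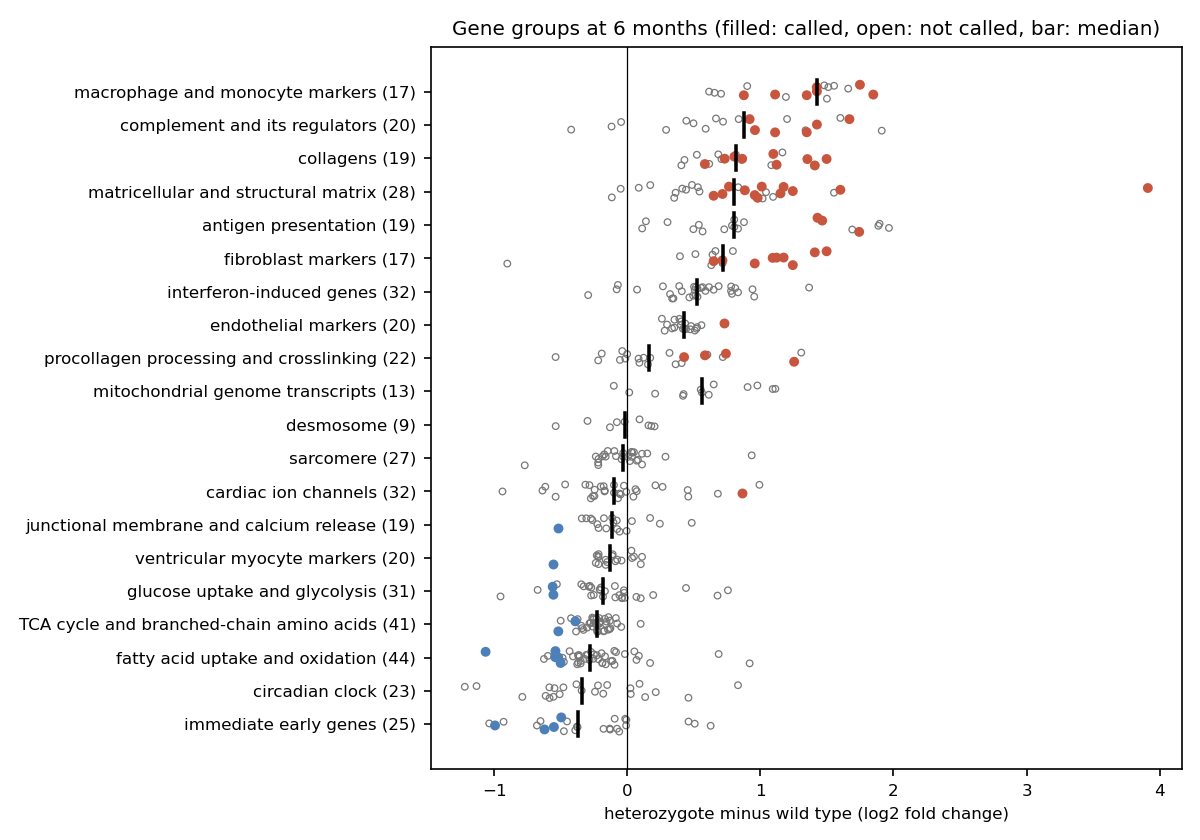
Log2 fold change, heterozygote minus wild type, of each tested member of 20 gene lists, whose numbers of tested members stand in brackets. Filled points were called, open points were not, and the bar is the list's median, which runs from 1.42 for macrophage and monocyte markers to -0.37 for immediate early genes.

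Of 44 genes of fatty acid uptake and oxidation, the main fuel route of the adult heart, 38 had a negative log2 fold change (47.2% of all tested genes had one). Of the 44, 5 were called lower (0.574% of all tested genes were) and none higher, and the median was -0.28. Eci1, an isomerase needed for unsaturated fatty acids, stood at 245, 228, 219, 277 and 236 CPM in wild type and at 155, 182, 176, 156 and 158 CPM in heterozygotes. The groups did not overlap (log2 fold change -0.54 ± 0.09, edgeR adjusted p = 0.00954). Decr1, the reductase of the same side route, changed by -0.52 ± 0.11 (edgeR adjusted p = 0.0288), and Ech1, another isomerase, by -0.54 ± 0.12 (0.0298). The acyl-CoA thioesterases Acot1 (-1.06 ± 0.19, 0.0152), Acot2 (-0.50 ± 0.10, 0.0273) and Acot7 (-0.64 ± 0.11, 0.00795) fell too. They were 3 of 9 in a thioesterase list put together after the calls were seen, where 0.574% of all tested genes were called lower. Acot1 and Acot2 are close copies of each other, so reads could be split between them.

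Of 41 genes for the TCA cycle or for breakdown of branched-chain amino acids, 40 had a negative log2 fold change (median -0.23). Against 0.574% of all tested genes, 2 of the 41 were called lower. They were Mccc2, a subunit of the carboxylase of leucine breakdown (-0.52 ± 0.10, edgeR adjusted p = 0.0235), and Dbt, a subunit of the branched-chain ketoacid dehydrogenase (-0.39 ± 0.09, 0.0368). Of 31 genes of glucose uptake and glycolysis 2 were called, both lower (0.574% of all tested genes were). Slc2a4 encodes GLUT4, the insulin-sensitive glucose transporter, and stood at 1078 to 1381 CPM in wild type and 655 to 1069 CPM in heterozygotes without overlap (-0.56 ± 0.12, 0.0327). Pdk1, a kinase that restrains pyruvate dehydrogenase, stood at 358 to 478 CPM and 253 to 327 CPM (-0.55 ± 0.11, 0.0176). Ak4, a mitochondrial adenylate kinase, changed by -0.54 ± 0.10 (0.0152), and Prkag1, a subunit of the energy sensor AMPK, by -0.37 ± 0.09 (0.0446). Amy1, an amylase with near-identical copies among which reads could be split, changed by -1.73 ± 0.20 (edgeR adjusted p = 0.000364).

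The nuclear and mitochondrial genes of oxidative phosphorylation did not pass the test. Of 72 nuclear subunit genes edgeR called none, 14 had an unadjusted p under 0.05, all lower (7.07% of all tested genes were), and the median was -0.07. DESeq2 called 9 of them and limma-voom 1. Of the 13 protein-coding transcripts of the mitochondrial genome 12 had a positive log2 fold change (median 0.56). None was called by edgeR or limma-voom, DESeq2 called 3, and 6 had an unadjusted p under 0.05 (15.7% of all tested genes had one). Without heterozygotes 3 and 5, the libraries with the highest mitochondrial share, 9 of the 13 were positive (median 0.17). Without wild types 2 and 5, 12 were positive (median 0.56). Neither of these 2 edgeR fits called any of the 13. The ventricular myocyte markers, among which Slc2a4 was the 1 call, had a median of -0.13, and the mitochondrial share of each library is given above. Their part in the fuel results was not tested. Of the fuel genes named, Eci1, Acot1, Acot7, Ak4 and Amy1 were called in all 10 fits that left out 1 library. Pdk1 was called in 8, Decr1 in 6, Mccc2 in 5, Acot2 and Ech1 in 4, Slc2a4 in 3, Dbt in 2 and Prkag1 in 0, with an edgeR adjusted p of up to 0.111 without heterozygote 4. Without heterozygotes 3 and 5, 1 gene of fatty acid oxidation and none of the TCA list was called, and without wild types 2 and 5 these counts were 4 and 1.

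Among immediate early genes, which answer stimuli within minutes and also respond to the handling of cells, the calls were all lower. Of 25 tested, 22 had a negative log2 fold change (median -0.37) and 4 were called lower (0.574% of all tested genes were). Atf3, a stress-induced transcription factor, stood at 177, 233, 172, 104 and 172 CPM in wild type and at 102, 97.7, 60.4, 89.5 and 81.2 CPM in heterozygotes. Wild type 4 nearly met the highest heterozygote while the other wild types lay well above (-0.99 ± 0.19, edgeR adjusted p = 0.0253). Jun, the AP-1 subunit, changed by -0.62 ± 0.13 (edgeR adjusted p = 0.0278) with an overlap, since wild type 4 was at 248 CPM and heterozygotes reached 258 CPM. Btg2, an antiproliferative gene, changed by -0.50 ± 0.11 (0.0368) and Dusp1, a phosphatase that switches off MAP kinases, by -0.55 ± 0.11 (0.0178). Wild type 4 was the lowest wild type for all 4 of them. Dusp1 was called in all 10 fits that left out 1 library, Atf3 in 5, Jun in 3 and Btg2 in 2, with an edgeR adjusted p of up to 0.103 without wild type 1, and none of the list was called without heterozygotes 3 and 5 or without wild types 2 and 5. Circadian clock genes had a median of -0.34. None of 23 was called by edgeR, DESeq2 or limma-voom, and 7 had an unadjusted p under 0.05, all lower (7.07% of all tested genes were).

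None of 27 tested sarcomere genes was called by edgeR or limma-voom, and DESeq2 called 1. An unadjusted p under 0.05 was reached by 2 (15.7% of all tested genes reached it), and the median was -0.03. The myosin heavy chain genes Myh6 and Myh7 had log2 fold changes of -0.24 and -0.22 (edgeR adjusted p = 0.548 and 0.766). Clcn1, the chloride channel of skeletal muscle, fell from 13.2 to 26.8 CPM to 3.27 to 8.25 CPM (-1.60 ± 0.24, 0.00662).

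Wall stress genes varied widely between libraries. Of 25 genes of this list 20 had a positive log2 fold change (median 0.29) and 2 were called higher (0.934% of all tested genes were). They were Tgfb2 (1.06 ± 0.19, edgeR adjusted p = 0.0113) and Actn1, the non-muscle alpha-actinin (0.70 ± 0.15, 0.0271). Tgfb2 encodes a TGF-beta ligand and stood at 4.94 to 8.57 CPM in wild type and 10.02 to 18.4 CPM in heterozygotes, and was the 1 call among 30 genes of TGF-beta and BMP signalling (median 0.11). Nppa, the atrial natriuretic peptide gene, stood at 11.8, 24.5, 118, 16.8 and 73.6 CPM in wild type and at 187, 57.5, 82.0, 88.3 and 139 CPM in heterozygotes. Wild types 3 and 5 lay within the heterozygote range, and Nppa was not called (1.18 ± 0.69, edgeR adjusted p = 0.454). Nppb, the gene of the related B-type peptide, gave 0.73 ± 0.39 (0.404). Ankrd1, a stretch-induced titin partner, stood at 396 to 925 CPM and 882 to 2561 CPM (1.25 ± 0.33, 0.107). Timp1, the inhibitor of matrix metalloproteinases, stood at 0.532, 0.955, 0.761, 2.71 and 0.774 CPM and at 18.1, 4.17, 3.42, 3.83 and 5.73 CPM without overlap, yet missed the threshold (2.63 ± 0.60, 0.0659). Actn1 was called in 4 of the fits that left out 1 library (edgeR adjusted p up to 0.0675 without wild type 2), and without wild types 2 and 5 neither Tgfb2 (0.0817) nor Actn1 (0.131) was called.

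Several ligands and receptors changed. Nrg1 encodes neuregulin, a growth factor made mainly by cardiac endothelium, and Erbb4 its receptor on myocytes. Nrg1 stood at 0.319, 0.743, 0.254, 0.213 and 0.310 CPM in wild type and at 2.17, 1.27, 2.02, 0.907 and 1.13 CPM in heterozygotes, low but without overlap (2.02 ± 0.41, edgeR adjusted p = 0.0245). Erbb4 stood at 16.5 to 30.1 CPM and 10.4 to 18.4 CPM, so that the groups overlapped (-0.75 ± 0.17, edgeR adjusted p = 0.0463). Osmr, the oncostatin M receptor, rose by 1.12 ± 0.23 (0.0327), and Ctf1, the gene of the related cytokine cardiotrophin-1, fell by 0.42 on the log2 scale (0.0273). Igf1 rose by 1.08 ± 0.23 (0.0313), as did the IGF-binding proteins Igfbp4 (0.70 ± 0.15, 0.028) and Igfbp7 (0.79 ± 0.17, 0.042), while Grb14, an inhibitory adaptor of the insulin receptor, changed by -0.42 ± 0.08 (0.0228). These 4 were the calls among 22 genes of insulin and IGF signalling (median -0.07), against 1.51% of all tested genes. Irs4, an insulin receptor substrate below the filter, had 0 counts in the 5 wild types and 9, 8, 5, 13 and 8 counts in the heterozygotes, 43 in all, which is at least 14.1-fold higher against a floor of 3 counts over the group. Adra1b, an alpha-1 adrenergic receptor, changed by -0.50 ± 0.11 (0.0367).

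Among 16 purinergic receptors and pannexins, a list put together after the calls were seen, 3 were called higher and 1 lower. Of all tested genes 0.934% were called higher and 0.574% lower. Panx1, a channel that releases ATP, rose by 1.68 ± 0.32 (edgeR adjusted p = 0.0178), P2rx7, an ATP-gated channel of myeloid cells, by 1.19 ± 0.25 (0.028) and P2ry6 by 1.66 ± 0.36 (0.0319), while P2ry1, an ADP receptor, changed by -0.58 ± 0.13 (0.0324). Nrg1, Erbb4, Irs4, Ctf1 and these 4 genes were chosen after their values were seen. Panx1 was called in 9 of the 10 fits that left out 1 library, Grb14 and Igfbp4 in 5, Nrg1 and P2ry1 in 4, Igf1, Osmr, Adra1b, P2rx7 and P2ry6 in 3, and Erbb4, Ctf1 and Igfbp7 in 2. Their edgeR adjusted p then reached at most 0.108, for Erbb4 without wild type 2. Without heterozygotes 3 and 5 none of these genes was called.

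Ndnf and the p53 targets Phlda3 and Cdkn1a rose. Ndnf encodes a secreted glycoprotein first described as a neuron-derived factor. Ndnf (ENSMUSG00000049001, chr6:65671590-65712326) stood at 8.62, 9.82, 10.9, 4.84 and 11.04 CPM in wild type and at 35.5, 24.3, 26.2, 25.4 and 33.1 CPM in heterozygotes. Every heterozygote was far above the highest wild type (3.19-fold, 1.67 ± 0.20, edgeR adjusted p = 0.000877). Phlda3, which holds back AKT, stood at 2.76 to 5.57 CPM and 8.37 to 16.9 CPM (1.54 ± 0.24, edgeR adjusted p = 0.00662). Cdkn1a, the cell cycle inhibitor p21, stood at 3.42 to 8.34 CPM and 9.46 to 21.3 CPM (1.40 ± 0.31, 0.0463), called in 2 of the 10 fits that left out 1 library (up to 0.119 without heterozygote 5). Of 25 tested p53 targets Phlda3 and Cdkn1a were called higher and Btg2 lower, where 1.51% of all tested genes were called. In this list 21 had a positive log2 fold change and the median was 0.15.

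The genes most like Dmd over the 10 libraries were Dpyd (Pearson r = 0.954), Polr3g (0.944), Ctnna3 (0.94), Grb14 (0.936) and Atf4 (0.933), all of them sharing these libraries and the genotype split. Dpyd, the enzyme that degrades pyrimidines, stood at 7.59 to 11.6 CPM in wild type and 3.68 to 4.95 CPM in heterozygotes (-1.02 ± 0.17, edgeR adjusted p = 0.00795). Dmd, Ctnna3 and Dpyd are among the longest genes of the genome. Of 80 tested protein-coding genes that span over 600 kb, 8 were called (10%, against 1.51% of all tested genes of any type). The 8 include Dmd, Ctnna3 and Dpyd themselves, so this share describes the class and tests nothing. Of the 8 calls 5 were lower and 3 higher, and the median of the 80 was 0.04. Besides Dmd, Ctnna3 and Dpyd, the falls were Erbb4 and Immp2l (-0.95 ± 0.18, edgeR adjusted p = 0.0169), and the rises included Nrg1 and Mast4 (0.48). Immp2l and Mast4 were chosen after their values were seen. Of the 10 fits that left out 1 library, Immp2l was called in 9 and Mast4 in 1. In the class of 300 to 600 kb none of 269 was called. The share called was 1.64% under 10 kb, 1.36% at 10 to 50 kb, 1.87% at 50 to 100 kb and 2.52% at 100 to 300 kb.

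Exoc2 lies 7.34 Mb from Dsp on chromosome 13. Within 20 Mb of Dsp 5 of 231 tested genes were called (2.16%, against 1.51% of all tested genes), and within 5 Mb none of 43. Besides Exoc2 they were Amph (-1.42), Ripor2 (-0.96), Carmil1 (1.07) and Fbxw17 (0.77, log2 fold changes), of which Amph, Carmil1 and Fbxw17 were named for their position after the calls were seen. Ripor2, a gene for an inhibitor of RhoA, stood at 14.6 to 22.7 CPM in wild type and 7.20 to 12.5 CPM in heterozygotes (edgeR adjusted p = 0.0104). Carmil1 was called in 2 and Fbxw17 in 0 of the 10 fits that left out 1 library, with an edgeR adjusted p of up to 0.109 without heterozygote 4.

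The same genotype contrast at 3 months shares no library with the one at 6 months. The 3-month libraries carry other spike-in values and so may be another set, which cannot be told apart from age. The difference between both contrasts was tested in 1 edgeR fit of the 20 regular-activity libraries. It was called for 5 of 15097 genes (0.0331%), all matrix genes with a larger effect at 6 months. These were Col1a1 (difference of log2 fold changes 1.54 ± 0.27, edgeR adjusted p = 0.0242), Col1a2 (1.21 ± 0.20, 0.0242), Bgn (1.23 ± 0.21, 0.0242), Postn (1.56 ± 0.29, 0.0448) and Fbn1 (1.02 ± 0.19, 0.0492). At 3 months their own log2 fold changes were -0.14, -0.10, -0.26, -0.33 and -0.27, and the mean level of Col1a1 was 7.69 CPM in wild type and 6.94 CPM in heterozygotes. The number of such calls was 118 with DESeq2 and 0 with limma-voom, where 1805 genes had an unadjusted p under 0.05. It was 0 without 6-month wild type 4 or 5, 6-month heterozygote 3 or 5, 3-month wild type 3 or 3-month heterozygote 2 or 5, 1 without 6-month wild type 1 (none of the 5 genes above), 1 without 6-month wild type 2 (Bgn), 8 without 6-month wild type 3, 13 without 6-month heterozygote 2 and 25 without 3-month wild type 1.

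Ndnf and Phlda3 were the 2 genes called at 3 months in that fit (0.0132%). At 6 months the same fit called Ndnf (edgeR adjusted p = 0.00733) but not Phlda3 (0.0676), which was called in the fit of the 6-month libraries alone. A fit of the 3-month libraries alone called none of 13428 genes with edgeR, with 1053 at an unadjusted p under 0.05, 41 with DESeq2 and none with limma-voom. Ndnf and Phlda3 both had an edgeR adjusted p of 0.316 there. Ndnf changed by 1.81 at 3 months (edgeR adjusted p = 0.0419), where its mean level was 7.86 CPM in wild type and 27.5 CPM in heterozygotes. Phlda3 changed by 2.35 (0.0419). Of the 135 genes called higher at 6 months 67 had a positive log2 fold change at 3 months, with medians of 1.01 at 6 months and -0.00223 at 3 months. Of the 83 called lower 68 had a negative one at 3 months, with medians of -0.69 and -0.20. Across all genes of that fit 49.7% had a positive log2 fold change at 3 months. Dsp changed by -0.50 at 3 months and was not called (edgeR adjusted p = 0.313), with mean levels of 1133 CPM in wild type and 802 CPM in heterozygotes. Dmd had a log2 fold change of -0.62 at 3 months, Ctnna3 -0.69 and Exoc2 -0.79, none of them called (edgeR adjusted p = 0.242, 0.0905 and 0.13). The differences, 6 months minus 3 months, were -0.58, -0.36 and -0.47 and were not called either (edgeR adjusted p = 0.538, 0.609 and 0.645). Marker lists of other cells had medians of opposite sign at the ages. Fibroblast markers had a median of 0.72 at 6 months and -0.27 at 3 months, where 2 of 17 were positive, and Col1a1, Col1a2 and Postn of this list are among the 5 genes above. Macrophage markers had medians of 1.42 and -0.18, and endothelial markers 0.42 and -0.60, with none of 20 endothelial genes positive at 3 months, and neither list held a gene called for the difference. The part of these cells in the difference between the ages was not tested.

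**Figure D5:**
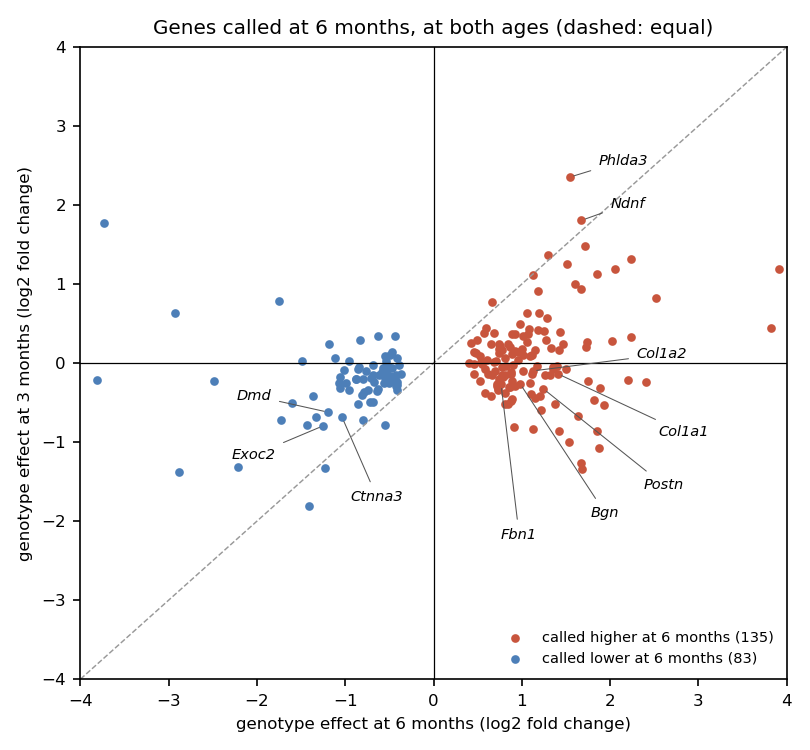
Log2 fold change, heterozygote minus wild type, at 6 months (fit of 10 libraries) and at 3 months (fit of 20 libraries) of the 218 genes called at 6 months, with a dashed line where both are equal. The 5 matrix genes named at the right lie between -0.33 and -0.10 at 3 months, Ndnf and Phlda3 lie high at both ages, and most genes called lower lie below 0 at both.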

How the data were processed

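RNA of cardiac myocytes was sequenced, per the labels' protocols, after ribosomal RNA depletion and strand-specific paired-end library preparation. The authors deposited whole-number counts for each gene, not normalized. Per the submitters' processing notes, featureCounts, HISAT2 and Trim Galore were used with mm10. Annotation, strand setting and filters are not given in the sources used here, so overlapping or near-identical genes may share reads. The table held 52550 genes and 23 spike-ins, and its 10 columns of exercised mice were not used. Symbols that had become dates were restored for 26 genes. Positions came from GENCODE M21.

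The members and lists were chosen with earlier results of these data known. Counts and medians of lists put together after the calls were seen describe these lists and test nothing. Genes were filtered (filterByExpr), scaled by TMM and tested with edgeR 4.0.16 (robust quasi-likelihood F test, limma 3.58.1, R 4.3.3) over 10 libraries with 8 residual degrees of freedom, or over 20 libraries for the difference between ages. A gene was called at a Benjamini-Hochberg adjusted p under 0.05, a p in brackets after a log2 fold change is this edgeR adjusted p, and values for 3 months come from the fit of 20 libraries. CPM use TMM-scaled library sizes, except for marker sums, lymphocyte and neutrophil markers, Xist and Y-linked genes, which use unscaled totals. Log2 CPM adds a prior count of 2, and SE is the log2 fold change divided by the square root of F. Shares of counts were compared by exact permutation. The test was checked on simulated counts.

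The naming rule took Dsp, up to 15 called genes per direction with the largest fold (mean log2 CPM of at least 1, no provisional symbol, at least 9 of 10 libraries on their own side of the midpoint), up to 4 genes per list with the smallest p, 9 junction and stress genes and the 5 genes most like Dmd. Other genes were chosen after their values were seen, and a few called genes are not reported here. Alternatives were other scaling, no filter, a replicate block, DESeq2 1.42.0, limma-voom, the fit of 20 libraries, removal of abundant genes, Xist as covariate, leaving out libraries and, chosen after seeing the data, leaving out heterozygotes 3 and 5.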

Additional observations from a re-analysis of the deposited data

Results flagged for a closer look

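For 5 genes the effect of genotype differed between the ages by the test of the difference itself (edgeR): Fbn1 by 1.02, Bgn by 1.23, Postn by 1.56, Col1a2 by 1.21 and Col1a1 by 1.54 on the log2 scale, larger at 6 months in each case. Age cannot be told apart here from a possible difference between sets of libraries.

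Some values lay far from the other 4 of their group by Dixon's criterion, which chance meets in about 1 in 20 groups. The criterion was applied to unlogged values of both groups, for most genes named here and for 4 shares. Over so many groups some such values arise by chance. Heterozygote 3 was high for Adamts2 (17.3 CPM), C1qa (19.5 CPM), C1qc (14.2 CPM), Ctss (4.28 CPM), H2-DMa (4.28 CPM), Igfbp7 (112 CPM) and the hemoglobin share (0.0126% of counts). Heterozygote 2 was high for Mccc2 (69.9 CPM) and Pdk1 (327 CPM), heterozygote 5 for Gja1 (797 CPM) and heterozygote 1 for Timp1 (18.1 CPM). Wild type 3 was high for Col1a2 (27.8 CPM) and Postn (11.4 CPM), wild type 5 for Adamts1 (137 CPM), Ifit1 (4.80 CPM) and the small RNA share (1.80% of counts), wild type 4 for P2ry6 (0.956 CPM) and Timp1 (2.71 CPM), wild type 2 for Nrg1 (0.743 CPM) and wild type 1 for Dmd (361 CPM). Wild type 4 was low for Jun (248 CPM) and wild type 1 for Pi16 (5.00 CPM).

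Spike-in sequences, which no comparison used, held up to 21 reads in a library.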

How the results depend on the processing

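The number of genes called (218, 135 higher and 83 lower) was 456 (282 and 174) without the low-count filter, 625 (351 and 274) with DESeq2, 82 (36 and 46) in the fit of 20 libraries, 70 (38 and 32) without wild types 2 and 5 and 67 (40 and 27) without heterozygotes 3 and 5. The share of higher calls was 61.9% and went down to 43.9% in the fit of 20 libraries. Leaving out 1 library gave 105 to 289 calls (61 to 172 higher, 40 to 117 lower). The number of genes that differed between the ages (5) was 13 without the filter, 118 with DESeq2, 0 with limma-voom and 0 to 25 without 1 library. The difference in mitochondrial share ran from 2.57 to 6.32 percentage points and that in ribosomal RNA from 0.903 to 2.20 percentage points without 1 library, both with an exact permutation p of 0.0159 without heterozygote 2. The small RNA difference ran from -0.138 to 0.0306 percentage points and changed sign without wild type 5. Jup ran from -0.0521 to 0.0206 without 1 library, positive without wild type 2, and Myh7 was 0.0571 without wild types 2 and 5. The cause was not tested.

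With the replicate number as a block edgeR made 249 calls (151 and 98), 168 of them among the 218, and 10 for the difference between ages. The numbers do not pair the samples: deviations of same-numbered libraries correlated at -0.10, 0.19, 0.17, -0.06 and -0.09, and 2 of 5 wild types correlated best with their own number.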
